A study of Mus musculus with 31 samples.

Results

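The miR-106b-25 cluster consists of 3 hairpins, miR-106b, miR-93 and miR-25, that lie together in an intron of Mcm7, which encodes a subunit of the replicative helicase. The cluster was taken as every mature miRNA whose name begins with miR-106b-, miR-93- or miR-25-, which gave 6 strands of the 507 miRNAs in the small-RNA-seq table, and its host as the Mcm7 mRNA, 1 of 15034 genes in the RNA-seq table. The study examined how the RNA-binding protein Trim71 controls Ago2 in mouse embryonic stem cells (mESCs) of the ES-E14TG2a line. Its WT cells carry a FLAG tag on endogenous Trim71. CLIPΔ cells lack, on both alleles, the region of the Ago2 mRNA bound by Trim71, Ago2 KO cells were made with guide pairs against Ago2 coding sequence, and Ago2 KO/CLIPΔ cells carry both changes. Edited lines were single-cell clones, and the labels do not name the clone behind a library. Small-RNA-seq was done on 4 libraries of each genotype, and RNA-seq on 4 libraries of each Ago2-deficient genotype but only 2 of WT and 2 of CLIPΔ. All are labelled as biological replicates. Per the study, the cells profiled were kept in 2i medium with LIF.

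Mature miRNAs are cut from a hairpin as a duplex, of which one strand is kept in an Argonaute protein and the other is usually lost. Ago2 is one of the 4 mouse Argonautes and the one that can slice RNA. A miRNA finds its target mRNAs mainly through its seed, bases 2 to 8. The strands miR-93-5p and miR-106b-5p carry the seed of the miR-17 family, and miR-25-3p carries that of the miR-92 family, so both overlap in targets with the related miR-17-92 and miR-106a-363 clusters. The cluster is known for dampening the cell-cycle inhibitor p21 and the pro-apoptotic protein Bim. The host protein, Mcm7, is part of the ring-shaped MCM2-7 helicase that unwinds DNA at replication forks.

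The hairpins lie on the minus strand of chromosome 5 in the 748-nt intron between exons 13 and 14 of the 15-exon transcript NM_008568.3 (chr5:138165162-138165909, mm10). In the direction of transcription the order is miR-106b (chr5:138165737-138165818), miR-93 (chr5:138165523-138165610) and miR-25 (chr5:138165321-138165404). The 6 mature sequences, as given by RefSeq on GRCm38.p6, follow with the seed in capitals, because the seed decides which other miRNAs each strand is compared with.
miR-106b-5p: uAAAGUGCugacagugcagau
miR-93-5p: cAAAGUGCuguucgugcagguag
miR-25-3p: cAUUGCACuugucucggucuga
miR-106b-3p: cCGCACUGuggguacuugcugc
miR-93-3p: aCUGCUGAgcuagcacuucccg
miR-25-5p: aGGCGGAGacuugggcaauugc
miR-106b-5p and miR-93-5p share 1 seed, and 4 other miRNAs of the table carry it. The seed of miR-25-3p is carried by 5 others. The seeds of miR-106b-3p, miR-93-3p and miR-25-5p were found in no other miRNA of the table that matched RefSeq. The relatives whose levels are compared with the cluster later are shown here, again with the seed in capitals.
miR-17-5p: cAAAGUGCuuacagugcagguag
miR-20a-5p: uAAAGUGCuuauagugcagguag
miR-20b-5p: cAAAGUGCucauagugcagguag
miR-92a-3p: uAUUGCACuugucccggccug
Each cluster strand has a single genomic locus, whereas miR-92a-3p has 2.

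Some features of the whole series bear on these values. Reads on single-locus miRNAs, which hold 89.4 to 96.2% of the small-RNA-seq TPM, were inferred from the steps between low values and came to 5149517 to 8043675 per library in WT, 2954764 to 7536091 in CLIPΔ, 759666 to 960380 in Ago2 KO and 806380 to 1229667 in Ago2 KO/CLIPΔ, so depth and Ago2 genotype cannot be told apart. The lowest count of any cluster strand in any library was 92 reads. The 2 Ago2-deficient genotypes had Ago2 mRNA at 1.51 to 2.87 TPM over 8 libraries, against 20.3 to 28.2 TPM in the 4 libraries with intact Ago2 coding sequence. Of 9 stem cell markers 8 were in the table, all 8 above the filter, with a summed level of 10920 to 14369 TPM per library, against 21.6 to 48.3 TPM for 8 markers of differentiated cells and 2.79 to 6.69 TPM for 4 fibroblast markers. Sox2 had no row in the table used.

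In WT cells the cluster made up 4.45% ± 0.23 (SD, n = 4) of all miRNA TPM. miR-25-3p, at 26866 ± 1149 TPM, was the 8th most abundant of 507 miRNAs and supplied 60.6% ± 5.7 of the cluster. miR-93-5p followed at 13402 ± 3709 TPM and rank 12. The other strands were lower, with miR-106b-3p at 2803 ± 359 TPM, miR-106b-5p at 1095 ± 138 TPM, miR-25-5p at 240.0 ± 108 TPM and miR-93-3p at 62.3 ± 11.4 TPM. Each of these steps in the WT order was larger than the spread, since the ranges over the 4 libraries did not overlap between neighbours. The 3p of miR-25 and the 5p of miR-93 thus strongly outweighed their opposite strands, while miR-106b gave 2.60 ± 0.55 times as much 3p as 5p.

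**Figure D1:**
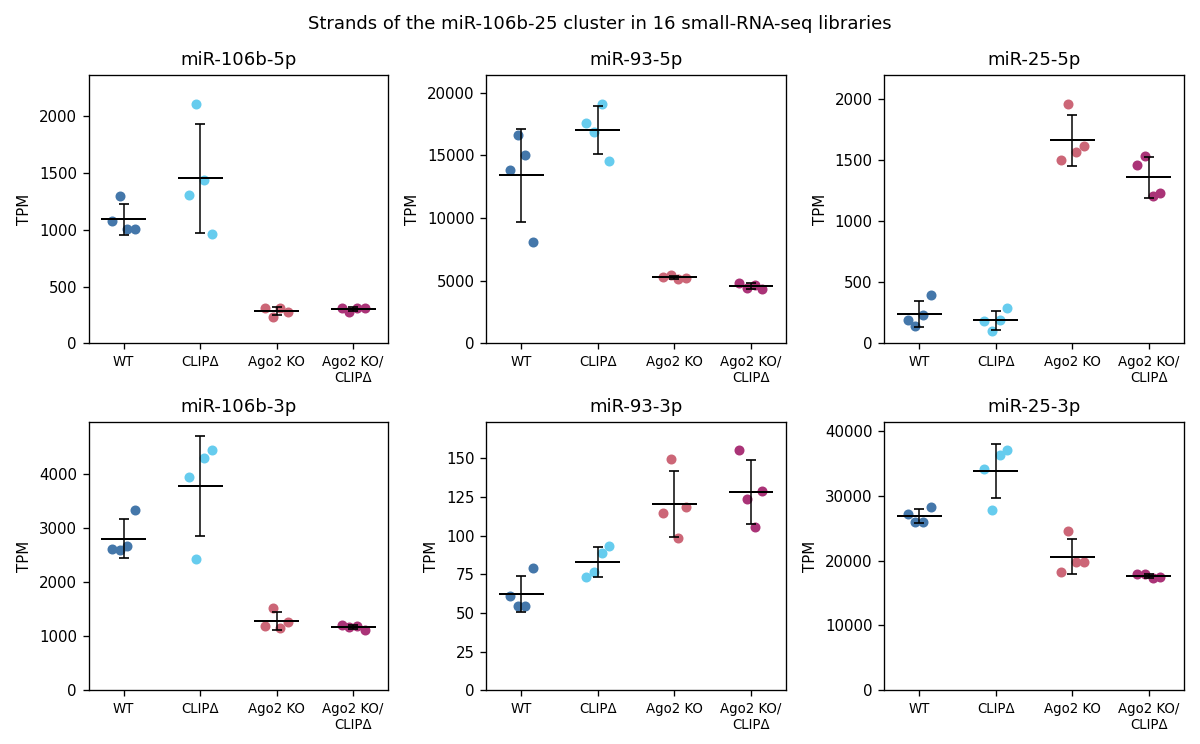
TPM of the 6 cluster strands (vertical axes, linear, from 0) in each small-RNA-seq library of the 4 genotypes; points are libraries, horizontal bars means and error bars SD (n = 4). The 2 Ago2-deficient genotypes lie below the others for miR-106b-5p, miR-106b-3p, miR-93-5p and miR-25-3p, and above them for miR-25-5p and miR-93-3p.

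The comparison of Ago2 KO with WT asks what the loss of Ago2 does to the cluster. Of the 5 strands above the abundance filter, 4 fell and 1, miR-25-5p, rose by limma on log2(TPM + 1) with Benjamini-Hochberg adjustment. Changes were common, as 82.9% of the 240 miRNAs tested passed the same threshold, 120 of them higher (50%) and 79 lower (32.9%), against 75 and 83 of 205 with edgeR on inferred reads. In 78.3% of miRNAs the groups did not overlap. The median of all miRNAs was 0.44 on the log2 scale, 0.16 with median centring (each library set relative to its median log2 value) and -0.13 with edgeR. The summed share of the cluster was 2.68, 3.38, 2.81 and 2.83% in the 4 Ago2 KO libraries and 4.51, 4.67, 4.50 and 4.13% in WT. The groups did not overlap, and the difference of -1.53 percentage points had p = 0.0286 in an exact two-sided permutation test, the smallest p that 4 against 4 libraries allow (adjusted p = 0.0286 over 4 comparisons of the share).

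miR-106b-5p, a strand with the miR-17 seed, fell most. Its level was 312, 235, 315 and 280 TPM in Ago2 KO and 1074, 1296, 1004 and 1004 TPM in WT. Every Ago2 KO library lay below every WT library, and the log2 change was -1.94 ± 0.16 (SE, limma adjusted p = 5.91e-07). Its partner miR-93-5p measured 5335, 5436, 5144 and 5199 TPM in Ago2 KO against 13853, 16638, 15007 and 8109 TPM in WT. The groups again did not overlap, though WT library D stood well below the other WT libraries, and the fall of 2.45-fold had a limma adjusted p of 1.17e-04. miR-106b-3p was at 1193, 1513, 1159 and 1261 TPM in Ago2 KO and at 2609, 2600, 2664 and 3340 TPM in WT. That was a fall of 2.19-fold without overlap (log2 change -1.13 ± 0.15, limma adjusted p = 2.94e-05).

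miR-25-3p, the main product of the cluster, fell least. It was at 18283, 24492, 19759 and 19831 TPM in Ago2 KO and 27249, 25891, 26004 and 28322 TPM in WT, a log2 change of -0.39 ± 0.11 (limma adjusted p = 0.00817). All 4 Ago2 KO libraries were below all WT libraries, with Ago2 KO library 2 the closest to them. Its opposite strand, miR-25-5p, moved the other way, from 192, 143, 232 and 393 TPM in WT to 1501, 1967, 1572 and 1619 TPM in Ago2 KO. The lowest Ago2 KO library thus stood far above the highest WT library, and the rise was 7.37-fold (log2 change 2.88 ± 0.27, limma adjusted p = 1.99e-06). miR-93-3p, which missed the filter here, was at 61.1, 54.5, 54.8 and 78.8 TPM in WT and 115, 150, 98.6 and 118 TPM in Ago2 KO. Those groups did not overlap either, and with no filter its log2 change was 0.94 (limma adjusted p = 0.00111). Median centring and edgeR on inferred reads, which scale the libraries differently, kept the direction of all 5 tested strands, with log2 changes under edgeR of -2.42 for miR-106b-5p, -0.88 for miR-25-3p and 2.29 for miR-25-5p.

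The same loss in CLIPΔ cells, Ago2 KO/CLIPΔ against CLIPΔ, was measured in 8 other small-RNA-seq libraries. All 6 strands passed the filter and the test, 4 lower and 2 higher, in a comparison where 82.3% of 249 miRNAs passed (46.2% higher and 36.1% lower). miR-93-3p, 1 of the 2 higher, passed the filter only through the genotype in which it was higher. Its mean was 128.3 TPM in Ago2 KO/CLIPΔ and 82.98 TPM, below the filter, in CLIPΔ. With edgeR on inferred reads 5 of the 6 strands passed, without miR-93-3p. For each of the 6 the groups did not overlap, as for 79.5% of all miRNAs tested. The share of the cluster was 2.59, 2.54, 2.48 and 2.47% in Ago2 KO/CLIPΔ and 5.74, 4.94, 6.16 and 5.74% in CLIPΔ. The groups were far apart, by -3.13 percentage points (exact two-sided permutation p = 0.0286, adjusted p = 0.0286). miR-106b-5p was at 302.7 ± 18.1 TPM (SD, n = 4) against 1455 ± 482 TPM, a 4.62-fold fall (log2 change -2.21 ± 0.22, limma adjusted p = 2.60e-06). miR-93-5p fell 3.72-fold, from 17018 ± 1918 to 4559 ± 243 TPM (limma adjusted p = 6.73e-08), and miR-106b-3p 3.14-fold (limma adjusted p = 1.12e-05). miR-25-3p fell 1.90-fold, from 33802 ± 4218 to 17651 ± 293 TPM (limma adjusted p = 1.37e-05).

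The minor strands of miR-25 and miR-93 rose in this pair of genotypes too, while miR-106b-5p, the minor strand of miR-106b, fell. miR-25-5p went from 180, 99.0, 194 and 286 TPM in CLIPΔ to 1460, 1539, 1206 and 1237 TPM in Ago2 KO/CLIPΔ. This was a 7.58-fold difference without overlap (limma adjusted p = 1.82e-06). miR-93-3p was at 73.1, 76.5, 89.0 and 93.3 TPM in CLIPΔ and 155, 124, 105.5 and 129 TPM in Ago2 KO/CLIPΔ. The lowest double-mutant library lay above the highest CLIPΔ library, and the 1.53-fold rise had a limma adjusted p of 0.00559, which became 0.0848 with edgeR on inferred reads.

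**Figure D2:**
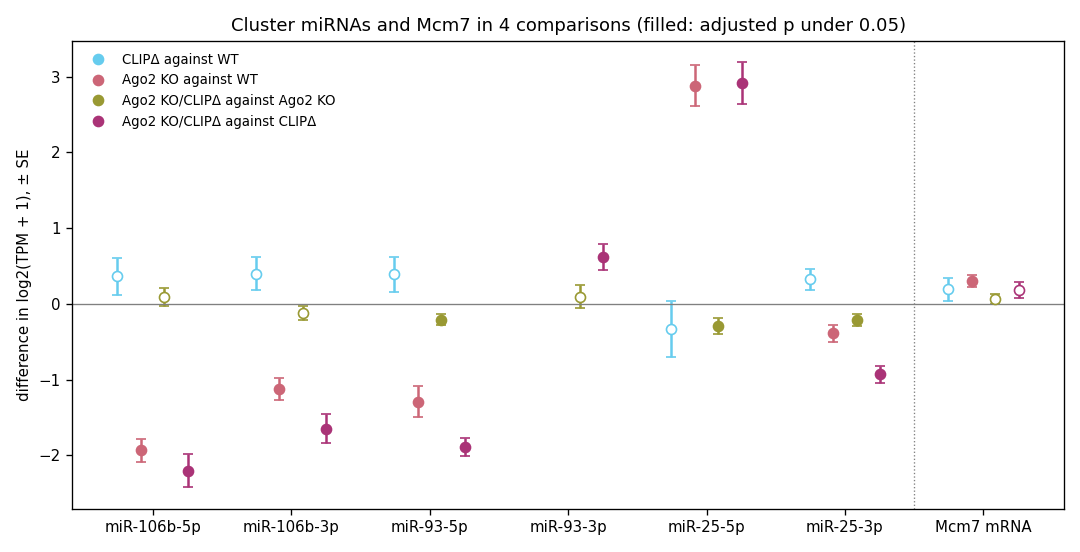
Difference in log2(TPM + 1) between genotypes, with SE, for the 6 cluster strands and the Mcm7 mRNA in 4 comparisons; filled points had a limma adjusted p under 0.05, and miR-93-3p is shown only where it passed the abundance filter. miR-25-5p lay near 2.9 in both comparisons with loss of Ago2, while the 2 miR-106b strands, miR-93-5p and miR-25-3p lay below 0.

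CLIPΔ against WT asks what follows when Trim71 can no longer bind Ago2 mRNA. None of the 5 strands tested passed the threshold by limma, where 27.8% of 227 miRNAs tested passed. By limma 1 of the 5 had an unadjusted p under 0.05, as did 39.6% of all miRNAs tested. edgeR on inferred reads likewise called 0 of the strands, where it called 41 of 193 miRNAs. With edgeR 1 strand had an unadjusted p under 0.05, and the share of all miRNAs was not counted there. The summed share did differ, at 5.65% ± 0.51 (SD, n = 4) in CLIPΔ and 4.45% ± 0.23 in WT. All 4 CLIPΔ libraries were above all WT libraries, by 1.19 percentage points (exact two-sided permutation p = 0.0286, adjusted p = 0.0286). With libraries paired by letter, the exact permutation p was 0.125, the smallest that 4 pairs allow, so the difference is not called there. miR-25-3p was at 34193, 27731, 36292 and 36990 TPM in CLIPΔ, and only library B fell within the WT range, for a log2 difference of 0.32 ± 0.13 (limma adjusted p = 0.106). miR-93-5p was at 17557, 16849, 19141 and 14527 TPM (0.39 ± 0.23, limma adjusted p = 0.236), miR-106b-3p at 3955, 2424, 4294 and 4439 TPM (0.40 ± 0.22, limma adjusted p = 0.206) and miR-106b-5p at 1304, 2113, 1439 and 966 TPM (0.36 ± 0.24, limma adjusted p = 0.303). For each of the 6 strands the 2 genotypes overlapped, whereas for 30% of all miRNAs tested they did not. miR-25-5p differed by -0.33 ± 0.37 (limma adjusted p = 0.545).

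Libraries with the same letter deviated together in these genotypes, and with the letter as a replicate block 3 of 5 strands passed the limma threshold, where 55.1% of the 227 miRNAs passed under the same block. These were miR-25-3p (adjusted p = 0.0407), miR-93-5p (adjusted p = 0.0424) and miR-106b-3p (adjusted p = 0.0439), all higher in CLIPΔ. Without CLIPΔ library B, miR-25-3p and miR-106b-3p passed as well, each at a limma adjusted p of 0.0172, where 70 of 227 miRNAs passed.

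In cells without Ago2, the same deletion, Ago2 KO/CLIPΔ against Ago2 KO, went with small differences that for miR-106b-3p, miR-93-5p and miR-25-3p had the opposite sign to those in cells with Ago2 and for the other strands the same sign. The share of the cluster was lower by 0.405 percentage points, with every double-mutant library below every Ago2 KO library (exact two-sided permutation p = 0.0286, adjusted p = 0.0286, and 0.125 with libraries paired by number). Ago2 KO library 2 had the highest share of its genotype, and without it the difference was -0.253 percentage points. Of the 6 strands 3 fell by limma, where 52.2% of 232 miRNAs passed, 50 higher (21.6%) and 71 lower (30.6%), or 48 and 18 of 198 with edgeR on inferred reads. The groups did not overlap for 2 of the 6 strands, and for 47.8% of all miRNAs tested. miR-93-5p was at 4843, 4384, 4679 and 4332 TPM in Ago2 KO/CLIPΔ, below all Ago2 KO libraries, with a log2 change of -0.21 ± 0.07 (limma adjusted p = 0.0256). miR-25-3p, at 17904, 17879, 17299 and 17522 TPM, also lay below all Ago2 KO libraries and fell by 0.21 ± 0.08 on the log2 scale (limma adjusted p = 0.0441). miR-25-5p changed by -0.29 ± 0.11 with overlap of the groups (limma adjusted p = 0.0387). The miR-106b strands differed by 0.09 ± 0.12 for the 5p and -0.12 ± 0.10 for the 3p, and miR-93-3p by 0.09 ± 0.15, with limma adjusted p of 0.515, 0.301 and 0.619. edgeR on inferred reads called 0 of the 6 strands (0 at an unadjusted p under 0.05). With all 16 libraries in 1 limma fit the count was also 0, where 51 of 232 miRNAs passed. Leaving out Ago2 KO/CLIPΔ library 3 or 4 also left 0 strands past the threshold, where 93 of 231 or 89 of 230 miRNAs passed. Leaving out Ago2 KO library 4 or Ago2 KO/CLIPΔ library 2 left 1, where 112 of 232 or 108 of 230 passed.

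The interaction, which asks whether the deletion acts differently with and without Ago2, passed for 2 of 5 strands, where 49.4% of 249 miRNAs passed. It was -0.54 ± 0.15 on the log2 scale for miR-25-3p (limma adjusted p = 0.00777) and -0.60 ± 0.24 for miR-93-5p (limma adjusted p = 0.0497). Neither passed with median centring (adjusted p of 0.0981 and 0.0962), and both passed with edgeR on inferred reads (adjusted p of 0.00401 and 0.0127). edgeR called 103 of 211 miRNAs. miR-106b-3p had an interaction of -0.52 ± 0.24 (limma adjusted p = 0.0891, edgeR adjusted p = 0.0341), and miR-25-5p 0.04 ± 0.41 (limma adjusted p = 0.973). Since miR-93-5p stood next to the threshold, its call was lost on leaving out any one of 12 of the 16 libraries, among them each of the 8 Ago2-deficient ones, and without WT library D the value was -0.38. The interaction of miR-25-3p passed without each library in turn.

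The balance of the 2 strands of each hairpin was then followed as the log2 ratio of 5p to 3p. For miR-25 it was -7.14, -7.49, -6.80 and -6.17 in WT and -3.61, -3.64, -3.65 and -3.61 in Ago2 KO. The change of 3.27 is a 9.66-fold shift toward 5p, and Ago2 KO libraries differed from each other by less than any other group. Expressed as a ratio, miR-25-3p exceeded miR-25-5p by 126 ± 46 fold in WT (SD, n = 4), 195 ± 61 fold in CLIPΔ, 12.4 ± 0.2 fold in Ago2 KO and 13.1 ± 1.4 fold in Ago2 KO/CLIPΔ. miR-93 shifted likewise toward its minor strand, the 3p. Its log2 ratio of 5p to 3p was 7.80, 8.23, 8.07 and 6.67 in WT and 5.52, 5.17, 5.69 and 5.45 in Ago2 KO, a change of -2.23 without overlap. miR-106b also shifted toward 3p, by -0.81, but there the 3p is the major strand.

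In exact two-sided permutation tests, 5 of the 12 changes in arm ratio (3 hairpins in 4 comparisons) had the smallest p that the design allows, 0.0286. Their adjusted p was 0.0686, so 0 of the 12 passed, and 5 is also the number at an unadjusted p under 0.05. They were the 3 hairpins in Ago2 KO against WT, and miR-93 and miR-25 in Ago2 KO/CLIPΔ against CLIPΔ, where the changes were -2.51 and 3.85. Among 114 hairpins of the table with both strands at a mean of at least 10 TPM and a single locus, 57.9% had a minor-to-major ratio that was higher in Ago2 KO than in WT without overlap, and 21.1% a lower one. miR-25 ranked 19th and miR-93 33rd in the size of the rise, and miR-106b ranked 92nd. In Ago2 KO/CLIPΔ against CLIPΔ the ratio was higher without overlap for 70 of the 114 hairpins and lower for 25. In CLIPΔ against WT the changes were -0.65 for miR-25, -0.03 for miR-93 and -0.04 for miR-106b, with exact permutation adjusted p of 0.245, 0.971 and 0.971.

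**Figure D3:**
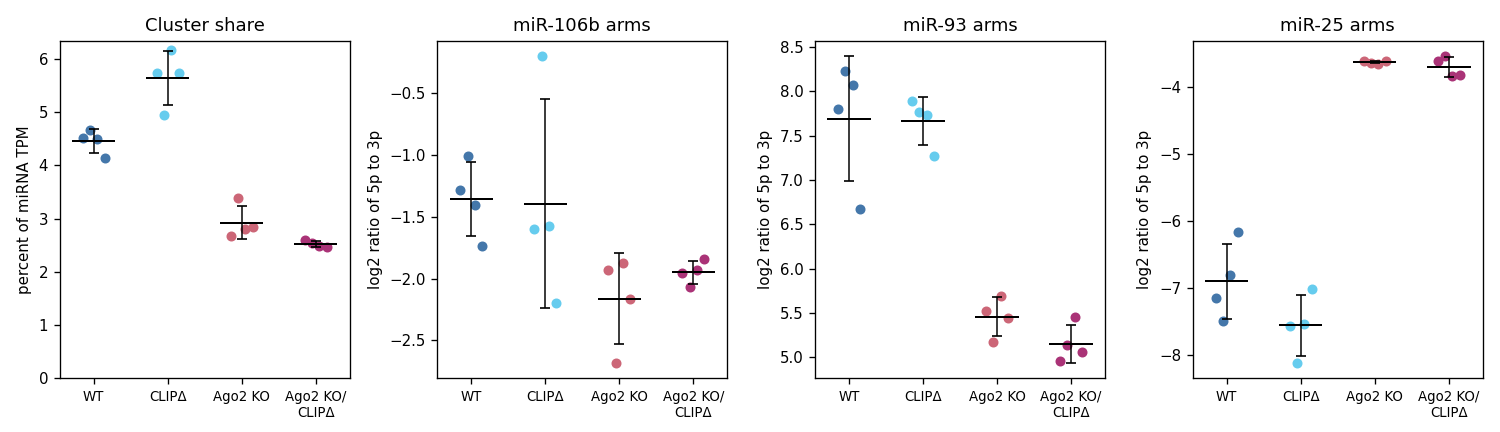
Share of the cluster in all miRNA TPM (left, percent) and log2 ratio of 5p to 3p TPM for miR-106b, miR-93 and miR-25 in each small-RNA-seq library; points are libraries, bars means, error bars SD (n = 4). The share was highest in CLIPΔ, and the miR-25 ratio rose from near -7 to near -3.6 in both Ago2-deficient genotypes.

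Other miRNAs with the seed of miR-93-5p and miR-106b-5p moved in both directions, and these cluster strands became a smaller part of their seed family without Ago2. In WT cells miR-93-5p and miR-106b-5p supplied 50.8% ± 3.8 (SD, n = 4) of the TPM of the 6 miRNAs with their seed. That share was 61.2% ± 3.4 in CLIPΔ, 23.1% ± 0.5 in Ago2 KO and 24.99% ± 0.25 in Ago2 KO/CLIPΔ, and no library with Ago2 overlapped one without. The summed level of all 6 was 28270 ± 5952 TPM in WT and 24128 ± 744 TPM in Ago2 KO. Of the 4 relatives, miR-20a-5p (log2 change 1.36 ± 0.17, limma adjusted p = 2.07e-05) and miR-20b-5p (0.70 ± 0.18, limma adjusted p = 0.00440) rose in Ago2 KO, miR-17-5p fell (-0.82 ± 0.13, limma adjusted p = 1.73e-04) and miR-106a-5p differed by 0.03 ± 0.15 (limma adjusted p = 0.834). The rise of miR-20b-5p was 0.17 with edgeR on inferred reads, whose adjusted p was 0.419, and miR-106a-5p was there lower by -0.46 (edgeR adjusted p = 0.0198). In Ago2 KO/CLIPΔ against CLIPΔ the log2 changes were 1.23 for miR-20a-5p, 0.79 for miR-20b-5p, -1.13 for miR-17-5p and 0.15 for miR-106a-5p, the last not past the threshold.

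miR-25-3p likewise made up less of its own seed family without Ago2. miR-25-3p was 63.6% ± 4.7 of the TPM of the 6 miRNAs with its seed in WT, 72.1% ± 2.0 in CLIPΔ, 35.5% ± 1.2 in Ago2 KO and 37.4% ± 2.6 in Ago2 KO/CLIPΔ. miR-92a-3p, from the miR-17-92 and miR-106a-363 clusters, rose from 11833 ± 2975 TPM in WT to 32680 ± 6218 TPM in Ago2 KO (log2 change 1.48 ± 0.19, limma adjusted p = 2.51e-05). The X-linked miR-363-3p differed by 0.50 ± 0.21 (limma adjusted p = 0.0442) but by -0.03 with edgeR (adjusted p = 0.913), and miR-92b-3p by 0.36 ± 0.34 (limma adjusted p = 0.327). miR-32-5p, at 10.2 ± 4.0 TPM in WT and 88.3 ± 12.9 TPM in Ago2 KO, and miR-367-3p, at 10.7 ± 1.6 and 10.1 ± 0.7 TPM, were below the filter.

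**Figure D4:**
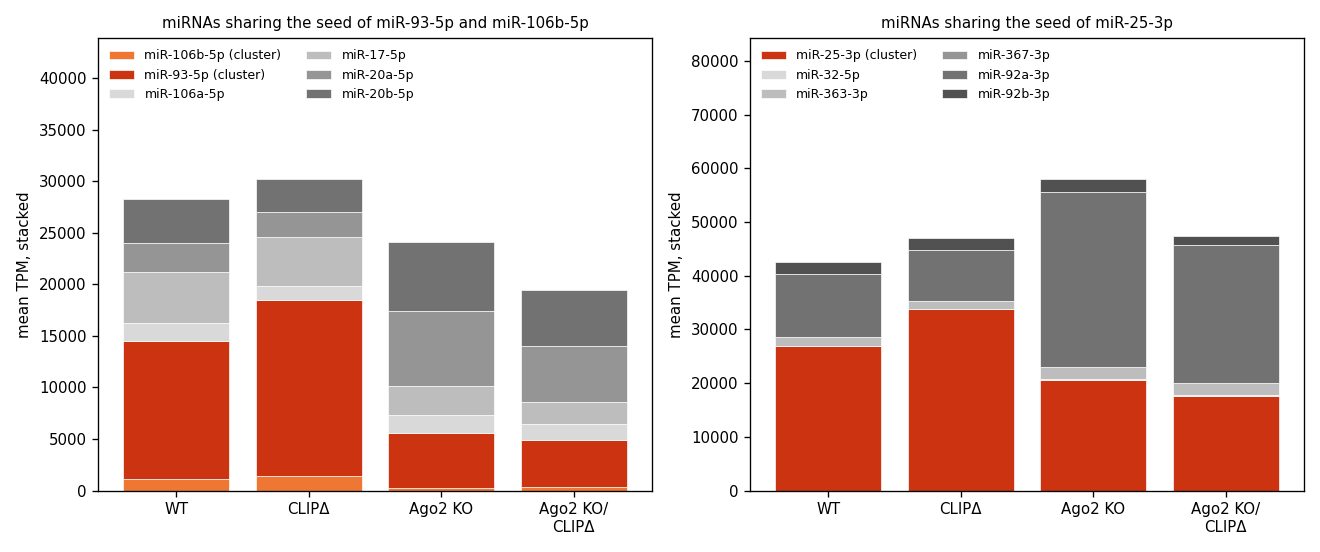
Mean TPM per genotype (n = 4 libraries), stacked, of the 6 miRNAs with the seed of miR-93-5p and miR-106b-5p (left) and the 6 with the seed of miR-25-3p (right); cluster strands in colour, relatives in grey. The coloured part is the larger in WT and CLIPΔ, and miR-92a-3p is the largest part on the right without Ago2.

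The host mRNA was abundant in every genotype and was not lower without Ago2. Mcm7 was at 610 and 646 TPM in WT, 685 and 753 TPM in CLIPΔ, 798, 798, 772 and 736 TPM in Ago2 KO, and 835, 900, 756 and 770 TPM in Ago2 KO/CLIPΔ. Both WT libraries lay below the other 10, and the remaining 3 genotypes were close, with the Ago2 KO range inside that spanned by CLIPΔ and Ago2 KO/CLIPΔ. Mcm7 rose 1.23-fold in Ago2 KO against WT (log2 change 0.30 ± 0.08, limma adjusted p = 0.0144), while the share of the cluster was lower by 1.53 percentage points.

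The background was large, as 57.5% of 11297 genes passed, 1589 higher (14.1%) and 4910 lower (43.5%), and for 68.4% the groups did not overlap. The median gene was at -0.26 on the log2 scale, and centring each library on its median gave 3655 higher and 2316 lower and a Mcm7 change of 0.65. The Mcm7 call rests on Ago2 KO libraries 3 and 4 as well: with libraries 1 and 2 only, the change was 0.34 with a limma adjusted p of 0.0615. Ago2 KO/CLIPΔ against CLIPΔ gave 0.18 ± 0.11 (limma adjusted p = 0.203), where 47.9% of 11256 genes passed, and 0.51 with median centring (adjusted p = 0.0329). In CLIPΔ against WT Mcm7 differed by 0.19 ± 0.15 (limma adjusted p = 1.00), a comparison in which limma called 0 of 11642 genes (0.0%, with 604, or 5.19%, at an unadjusted p under 0.05). Ago2 KO/CLIPΔ against Ago2 KO gave 0.07 ± 0.07 (limma adjusted p = 0.638, 3.22% of 10956 genes called), and the interaction was -0.12 ± 0.13 (limma adjusted p = 0.913, 0.647% of 11287 genes called).

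The subunits that form the helicase ring with Mcm7 differed among themselves in Ago2 KO against WT. Mcm2 rose (0.29 ± 0.10, limma adjusted p = 0.0386) and Mcm4 fell (-0.73 ± 0.12, limma adjusted p = 0.00255), with these directions also after median centring. Mcm3, Mcm5 and Mcm6 changed by 0.01, 0.15 and -0.13 and did not pass the limma threshold. Mcm7 thus made up 22.6 and 23.7% of the TPM of the 6 subunits in WT, 24.7 and 25.7% in CLIPΔ, 26.2 to 26.5% in Ago2 KO and 27.5 to 28.7% in Ago2 KO/CLIPΔ. It was the first or second most abundant of the 6 in each of the 12 libraries.

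**Figure D5:**
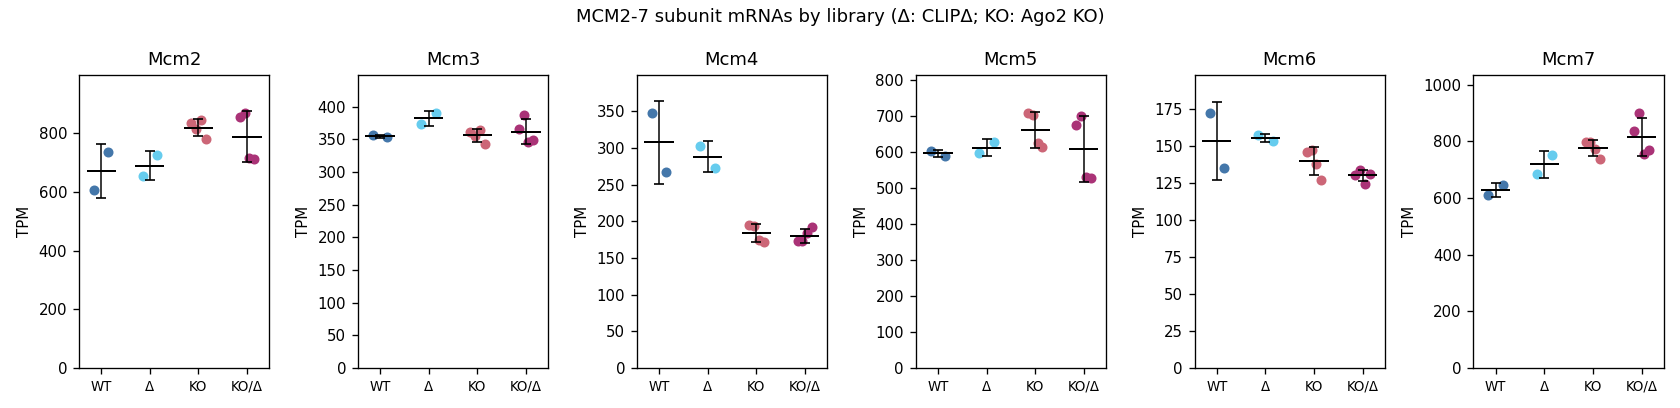
TPM of the 6 MCM2-7 subunit mRNAs (vertical axes, linear, from 0) in each RNA-seq library; points are libraries, bars means, error bars SD (n = 2 for WT and CLIPΔ, 4 for the others). Mcm7 lay lowest in WT, and Mcm4 was lower in all 8 Ago2-deficient libraries than in the 4 others.

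Over 26 genes of origin licensing and helicase loading and activation, Mcm7 included, 3 rose and 14 fell by limma in Ago2 KO against WT (14.1% and 43.5% of all genes), with a median log2 change of -0.28 beside -0.26 over all genes. With median centring the split was 9 higher and 6 lower, beside 3655 and 2316 of 11297 genes. The changes of single genes that follow were taken without centring. The licensing factor Cdt1 rose 1.53-fold (limma adjusted p = 0.00367). Mcm8, a helicase of meiotic and repair recombination, fell 1.89-fold (limma adjusted p = 3.21e-04), and the MCM-binding protein gene Mcmbp 1.55-fold (limma adjusted p = 0.00201). The origin recognition subunit Orc3 and the kinase Cdc7, which activates the loaded helicase, fell by 0.76 each on the log2 scale. In Ago2 KO/CLIPΔ against CLIPΔ 1 rose and 11 fell, where 10.7% of all genes rose and 37.2% fell. With median centring 6 rose and 4 fell there, beside 2817 and 1978 of 11256 genes. Limma called 0 of the 26 in CLIPΔ against WT (0 unadjusted) and 0 in Ago2 KO/CLIPΔ against Ago2 KO. In the latter 2 had an unadjusted p under 0.05, and the share of all genes was not counted.

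The genes next to Mcm7 on chromosome 5 were read beside it. The nearest 5 annotated genes on each side that have values in the RNA-seq were taken, and 9 passed the filter. In Ago2 KO against WT 2 of these rose and 4 fell by limma, where 14.1% of all genes rose and 43.5% fell. After median centring 2 rose and 1 fell, beside 3655 and 2316 of 11297 genes. Cops6, a subunit of the COP9 signalosome, rose by 0.35 ± 0.10 (limma adjusted p = 0.0192) and Lamtor4, of the Ragulator complex, by 0.60 ± 0.15 (limma adjusted p = 0.0106). Ap4m1, whose annotated extent overlaps that of Mcm7 head to head by 91 nt, fell by 0.68 ± 0.08 (limma adjusted p = 6.08e-04). The strand setting of the read counting was not given in the sources used here. Limma called 0 of these 9 in CLIPΔ against WT and 0 in Ago2 KO/CLIPΔ against Ago2 KO (0 unadjusted in both). None of the 498 Trim71 CLIP peaks was named for Mcm7 or lay within 1000 nt of it.

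Reported targets of the cluster seeds were read in the same RNA-seq. Of 13 such genes 12 were tested in Ago2 KO against WT, and 0 rose and 8 fell by limma (14.1% and 43.5% of all genes), with a median log2 change of -0.65 beside -0.26 over all genes. With median centring 1 rose and 5 fell, where 3655 of 11297 genes rose and 2316 fell. The median of the list was then -0.30 beside 0.09 over all genes. Cdkn1a, which encodes p21, was at 429 TPM in WT and 239 TPM in Ago2 KO on average (log2 change -0.84 ± 0.11, limma adjusted p = 0.00100). Bcl2l11, which encodes Bim, fell by 0.52 ± 0.13 (limma adjusted p = 0.0124, and 0.272 with median centring). E2f3, a transcription factor of S-phase entry, fell 2.22-fold (limma adjusted p = 6.35e-04), and Vegfa, the angiogenic growth factor, 2.83-fold (limma adjusted p = 0.00352). In Ago2 KO/CLIPΔ against CLIPΔ 0 of 11 rose and 5 fell, beside 10.7% and 37.2% of all genes. Limma called 0 of 12 in CLIPΔ against WT (2 unadjusted, beside 5.19% of all genes) and 0 of 11 in Ago2 KO/CLIPΔ against Ago2 KO. In the latter 4 of the 11 had an unadjusted p under 0.05, and the share of all genes was not counted. With the replicate block 2 of the 11 passed, 1 in each direction, where 804 of 10956 genes passed.

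Across the 16 small-RNA-seq libraries, the strands of the cluster fell into opposed sets. miR-106b-5p had Pearson's r of 0.95 with miR-93-5p and -0.99 with miR-25-5p on the log2 scale, and miR-25-5p had r of 0.85 with miR-93-3p. Outside the cluster, the patterns most like miR-106b-5p were those of miR-15a-5p, miR-141-3p and miR-130a-3p (r of 0.99, 0.99 and 0.98), and those most like miR-25-5p were miR-322-3p, miR-130b-5p and miR-92a-3p (0.99, 0.98 and 0.98). For miR-25-3p they were miR-425-3p, miR-361-5p and miR-669c-5p (0.97, 0.97 and 0.96), for miR-93-5p miR-186-5p, miR-107-3p and miR-34a-5p (0.98 each), for miR-106b-3p miR-361-5p, miR-298-5p and miR-291a-5p (0.98, 0.98 and 0.97), and for miR-93-3p miR-484, miR-291b-5p and miR-744-5p (0.96, 0.93 and 0.93). For Mcm7 over the 12 RNA-seq libraries they were Usp5, Sparc, Akt2, Nudt1 and Mfsd12, with r from 0.94 to 0.96. These values describe libraries that share genotype and, for miRNAs, depth, both of which separate the Ago2-deficient libraries from the rest.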

How the data were processed

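Per the study's methods and the submitters' processing notes, the authors mapped RNA-seq and small-RNA-seq reads to mm10 with HISAT2 2.1.0, used HTSeq to count reads over 1 transcript per gene, the longest, and deposited the values as TPM. Intronic reads do not enter Mcm7 if only the exons of that transcript were counted. The deposited Trim71 CLIP peaks carry read counts per peak and were used for position only. Fold changes were taken from limma 3.58.1 (lmFit, eBayes with trend) on log2(TPM + 1), in R 4.3.3, over miRNAs with a mean of at least 100 TPM or genes with at least 1 TPM in the libraries compared, with Benjamini-Hochberg adjustment over all tested and a threshold of 0.05. A fold change on this scale understates the change of low values. In each fit only the 2 genotypes compared were used (all 4 for the interaction), and comparisons that share a genotype are not independent. Arm ratios used the same pseudocount of 1. Whole reads were recovered from the miRNA TPM (at least 98.9% of values up to 50 reads were whole within 0.02 reads) and tested with edgeR 4.0.16 as an alternative. RNA-seq depth is unknown. Alternatives were median centring, other totals, a pseudocount of 10, no filter, all genotypes in 1 fit, a replicate block, subsets of the RNA-seq libraries and leaving out each library. p-values measure the spread between these libraries. Only the main limma fits of CLIPΔ against WT and of Ago2 KO against WT, for miRNAs and genes, were tested on simulated data.

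Column names of WT and CLIPΔ small-RNA-seq hold letters A to D that the labels do not tie to particular samples, and the code d3 was read as CLIPΔ. Same-lettered WT and CLIPΔ libraries deviated from their genotype means together (r of 0.349 to 0.744 over miRNAs), and 4 of 4 matched their own letter best. Same-numbered Ago2 KO and Ago2 KO/CLIPΔ libraries had r of 0.158 to 0.517 for miRNAs and 0.324 to 0.434 for genes. Only 2 of 4 matched their own number best in each assay, and Ago2 KO/CLIPΔ library 4 had r of 0.603 with Ago2 KO library 3 for miRNAs. Libraries 1 and 2 of these genotypes deviated together, as did 3 and 4. Between these sets r was negative in both assays, so pairing by number is uncertain. The pairing comes from these correlations and not from the labels. Sequences are from RefSeq, which matched 442 of 507 miRNAs.

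The members and lists were chosen with earlier results of these data known. Genes were named from lists of replication factors, reported seed targets, neighbours and cell type markers, relatives were those sharing a seed, and likeness was the highest Pearson r. The set of 114 hairpins was chosen after the values were seen.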

Additional observations from a re-analysis of the deposited data

Results flagged for a closer look

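Of 42 groups of 4 libraries checked for a library far from the others, 2 had one, and chance alone flags about 1 group in 20. miR-106b-5p in Ago2 KO/CLIPΔ library 2 was at 275 TPM, below the 311 to 312 TPM of the other libraries of that genotype. miR-106b-3p in WT library D was at 3340 TPM, above the 2600 to 2664 TPM of the others.

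The interaction of the CLIP-site deletion with loss of Ago2 passed the threshold, as it did for 49.4% of miRNAs tested, for miR-25-3p, whose term was -0.54 on the log2 scale (limma adjusted p = 0.00777), and for miR-93-5p, at -0.60 (limma adjusted p = 0.0497). In CLIPΔ against WT they differed by 0.32 and 0.39, neither past the threshold, and in Ago2 KO/CLIPΔ against Ago2 KO each fell by 0.21 on the log2 scale (limma adjusted p of 0.0441 and 0.0256). Neither interaction passed with median centring (limma adjusted p of 0.0981 and 0.0962), and that of miR-93-5p was lost on leaving out any one of 12 of the 16 libraries. Both passed with edgeR on inferred reads (adjusted p of 0.00401 and 0.0127). The Ago2-deficient libraries were shallower, and the part of depth in this was not tested.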

How the results depend on the processing

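The falls of miR-106b-5p, miR-106b-3p, miR-93-5p and miR-25-3p and the rise of miR-25-5p on loss of Ago2 passed under every alternative run, and the difference in cluster share kept its direction in each of the 4 comparisons, with values without each library in turn of 1.02 to 1.43, -1.68 to -1.45, -0.488 to -0.253 and -3.36 to -2.96 percentage points. The number of strands called in CLIPΔ against WT rose from 0 to 1 on a total without let-7 and miR-98, to 1 with all genotypes in 1 fit and to 3 with the replicate block, and was 0 to 2 without each library in turn. Calls over all miRNAs in these settings were 65, 100 and 125 of 227, and 48 to 71 without each library. For Ago2 KO/CLIPΔ against Ago2 KO the number of strands fell from 3 to 0 with all genotypes in 1 fit and to 0 with edgeR, and was 0 to 3 without each library. Calls over all miRNAs were then 51 of 232 and 66 of 198, and 89 to 124 without each library. The interaction count fell from 2 to 0 with median centring and to 1 with no filter, rose to 3 with edgeR, and was 1 to 3 without each library. Mcm7 in Ago2 KO against WT, at 0.34, was no longer called with libraries 1 and 2 only (adjusted p = 0.0615) or with the replicate block (0.34, adjusted p = 0.155), where numbers were shared by 2 pairs only, with r of 0.0639 and -0.155. In Ago2 KO/CLIPΔ against CLIPΔ it was called at 0.51 with median centring. The cause was not tested in any of these.

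Changes of sign were limited to values past no threshold. The miR-93 arm ratio in CLIPΔ against WT became 0.018 with a pseudocount of 10 and ran from -0.37 to 0.15 without each library, that of miR-106b from -0.44 to 0.23, and miR-106b-3p in Ago2 KO/CLIPΔ against Ago2 KO became 0.0050 with edgeR. miR-93-3p in that comparison ran from -0.0022 to 0.20 without each library, and the interaction of miR-25-5p was -0.048 on a total without let-7 and miR-98, -0.063 with edgeR and -0.24 to 0.27 without each library. For the small-RNA-seq of Ago2 KO against WT and of Ago2 KO/CLIPΔ against CLIPΔ no block could be fitted, since one side has letters and the other numbers. The block gave 0.19 for Mcm7 in CLIPΔ against WT (2 pairs, r of 0.716). It also brought the interaction of miR-106b-3p past the threshold (adjusted p = 0.0215) and changed no further call of a strand. The share lost its call in both comparisons with pairs, at the exact p of 0.125 that 4 pairs allow at best.

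Counts over all miRNAs moved by more than 1.5 times from 63 in CLIPΔ against WT (125 with the block, 136 with no filter, 100 in 1 fit, 41 with edgeR), from 121 in Ago2 KO/CLIPΔ against Ago2 KO (51 in 1 fit, 66 with edgeR), and with no filter from 199 to 359, from 205 to 374 and from 123 to 211 in the others. Over genes they moved from 0 to 284 in 1 fit and 333 with the block in CLIPΔ against WT, from 6499 to 3563 with libraries 1 and 2 only and 4142 with the block in Ago2 KO against WT, and from 353 in Ago2 KO/CLIPΔ against Ago2 KO to 804 with the block, 100 in 1 fit, 4157 with libraries 1 and 2 and 4238 with libraries 3 and 4. In both Ago2-deficient genotypes libraries 1 and 2 formed 1 set and libraries 3 and 4 another. Mcm5, for example, was at 709 and 703 against 626 and 614 TPM in Ago2 KO. In Ago2 KO/CLIPΔ it was at 676 and 702 against 532 and 529 TPM. The fits over 4 libraries count each as independent, so their spread mixes the 2 sets, and what sets them apart was not tested. The interaction moved from 73 genes to 168 with no filter and 0 with libraries 1 and 2. Leaving out 1 RNA-seq library moved the gene counts to 42 without CLIPΔ library 1 and 186 without library 2 in CLIPΔ against WT, to 2675 without CLIPΔ library 1 in Ago2 KO/CLIPΔ against CLIPΔ, to between 130 and 259 in Ago2 KO/CLIPΔ against Ago2 KO, and to between 48 and 137 for the interaction. Median centring gave 32 higher and 28 lower miRNAs in CLIPΔ against WT in place of 44 and 19, 163 and 163 genes in Ago2 KO/CLIPΔ against Ago2 KO in place of 108 and 245, and 2817 and 1978 genes in Ago2 KO/CLIPΔ against CLIPΔ in place of 1205 and 4189. Only 2 RNA-seq libraries each of WT and CLIPΔ limit what could be called for Mcm7.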
